A study of Mus musculus with 12 samples.

Results

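The genes described here mark mast cells, basophils and eosinophils, and were followed in cultured mouse marrow progenitors exposed to the inflammatory cytokine TNF (tumour necrosis factor alpha). They are 8 symbols, namely the basophil and mast cell proteases Mcpt8, Prss34 and Cpa3, the eosinophil granule proteins Epx and Prg2, the IgE receptor subunits Fcer1a and Ms4a2, and the cytokine gene Il4. A member was any probe set (a group of short probes on the array read as 1 value) that the platform annotation gave to exactly 1 of these symbols. The rule found 8 probe sets for 7 of the 8 genes, among 45101 probe sets and 18193 genes in all. The expression of Prss34 is not analysed here. Ms4a2 had 2 probe sets and the other 6 genes had 1 each.

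Expression was measured on 12 Affymetrix arrays in 4 groups of 3. The cells were KSL cells, which are c-Kit-positive, Sca-1-positive and lineage-negative marrow cells that hold haematopoietic stem and early progenitor cells, from mice aged 2 to 4 months. The groups were TNF-treated and untreated cells of Fancc-/- mice, and TNF-treated and untreated cells of wild-type mice. Every culture lasted 24 h and held 10% serum and 4 growth factors, namely stem cell factor (10 ng/ml), Flt3 ligand (50 ng/ml), IL-11 (10 ng/ml) and IL-6 (20 ng/ml), while TNF was used at 10 ng/ml. The labels give no strain. They do not state whether the 3 replicates of a group were separate animals, and the p-values therefore reflect only how far these arrays differ, which may be technical. Values are log2 expression as the authors deposited them, on which a difference of 1 is a doubling. A gene was called when its limma p, adjusted by the Benjamini-Hochberg method over all 18193 genes, was under 0.05.

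Mast cells, basophils and eosinophils arise from myeloid progenitors through partly shared precursors that depend on GATA transcription factors. Mast cells and basophils carry the high-affinity IgE receptor, whose alpha chain (Fcer1a) binds IgE and whose beta chain (Ms4a2) amplifies the signal. Their granules hold histamine and proteases, those of basophils among them the granzyme-like protease Mcpt8. Eosinophil granules hold eosinophil peroxidase (Epx) and major basic protein (Prg2). Basophils are a source of IL-4 in mice.

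The arrays carried signal for the sorted population, with Kit between 9.95 and 10.77 and Cd34 between 12.81 and 13.13. Fancc, whose product belongs to the core complex of the Fanconi anaemia DNA repair pathway, read 8.73 to 9.16 on the 6 arrays labelled mutant and 8.22 to 8.65 on the 6 wild-type arrays at its brightest probe set, so it was not lower where the label says it is disrupted (limma adjusted p = 0.137 averaged over TNF). Whether that probe set lies in the disrupted part is not known here, so the group is called "labelled mutant" below. The sex-linked transcript Xist read 5.06 to 5.47 on 3 untreated arrays (replicate 1 labelled mutant and wild-type replicates 1 and 2) and 12.04 to 13.08 on the other 9. Low Xist was thus seen only without TNF, so Xist level and treatment cannot be fully told apart. The Y-linked Eif2s3y read 3.79 on treated wild-type replicate 3, 4.16 on untreated replicate 2 labelled mutant and 10.46 to 11.88 on the other 10. Every comparison uses some of these arrays, and values after adjustment for both levels are given below for the members, the related genes named and the neutrophil and monocyte markers. With that adjustment 0.89% of all genes were called lower with TNF in wild type and 1.36% higher. On the arrays labelled mutant 0.978% were called lower and 1.51% higher, and in the average over genotype 3.33% and 3.65%. Of 8 measured mast cell protease genes 4 (Mcpt1, Mcpt2, Mcpt4 and Tpsab1) were below the lower quartile of every array (4.10 to 4.18). The eosinophil chemokine receptor gene Ccr3 was below it on all 12 arrays too. None of the 7 members was, on any array.

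Mcpt8, the basophil granule protease, and Il4 were called lower with TNF in wild-type cells, and no member was called higher in either genotype. Mcpt8 fell by 2.15 on the log2 scale in wild-type cells (4.44-fold), and Il4 fell by 0.62 (1.54-fold). Both wild-type calls were lost after adjustment for Xist and Eif2s3y (limma adjusted p = 0.108 and 0.0595). With that adjustment Mcpt8 still passed in the average over genotype (-1.91, adjusted p = 0.0359), and Il4 did not. On the arrays labelled mutant no member passed, although Mcpt8 was lower on all 3 treated arrays than on any untreated one. In bulk cultures such as these, fewer cells of a type and less RNA per cell cannot be told apart.

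**Figure D1:**
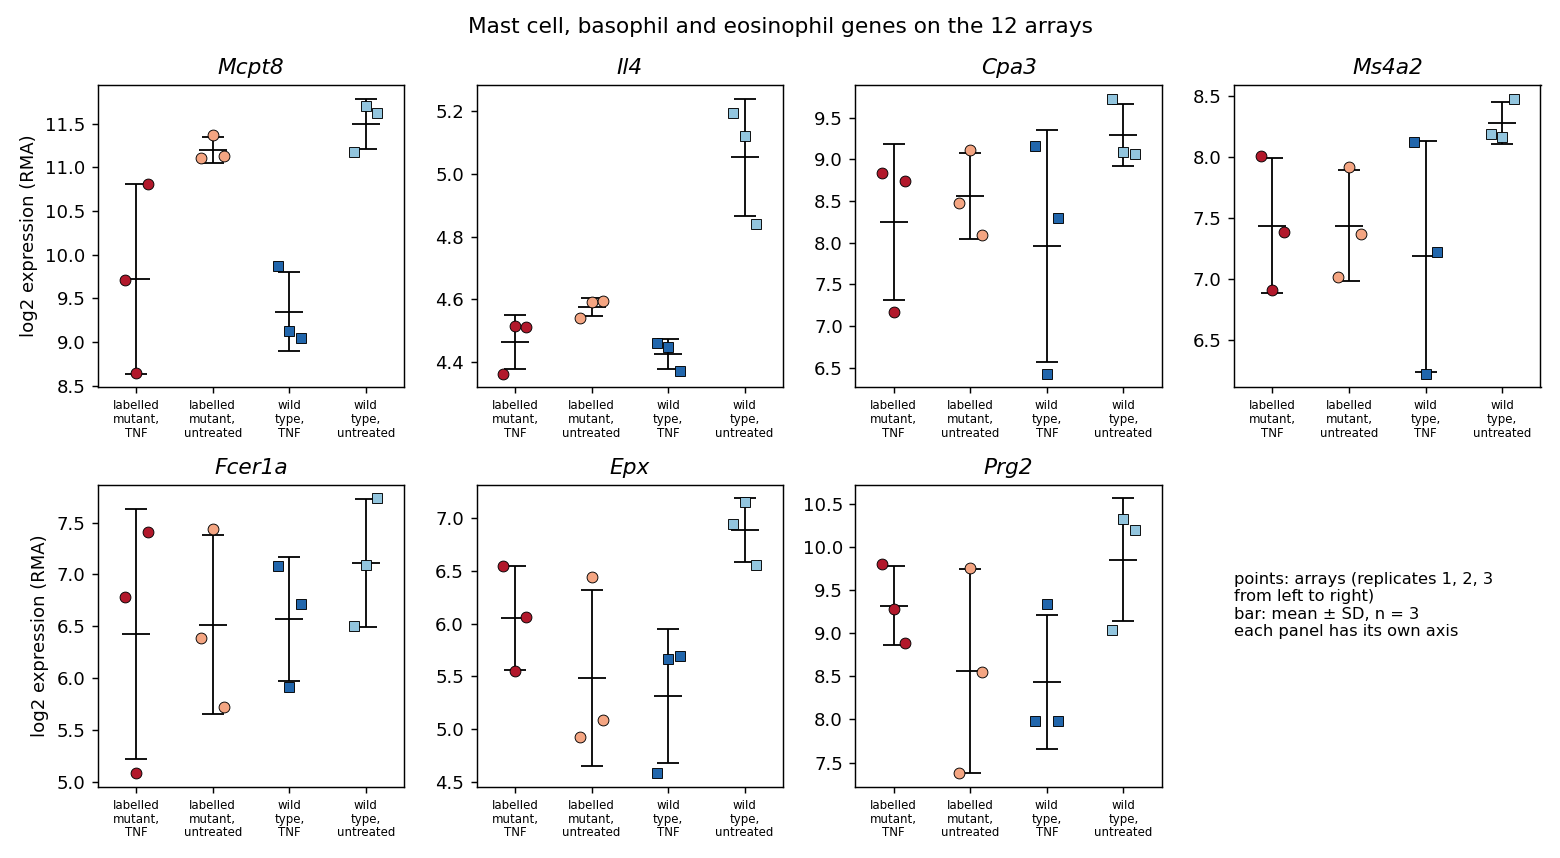
Log2 expression of each gene on the 12 arrays, 1 panel per gene with its own axis. Points are single arrays and bars are the mean ± SD of 3 arrays in each of the 4 groups. Mcpt8 lies at 9.87 or below on the treated wild-type arrays and at 11.17 or above on the untreated ones, while Fcer1a overlaps between all groups.

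Mcpt8 read 9.71, 8.64 and 10.81 on the treated arrays labelled mutant and 11.10, 11.37 and 11.13 on the untreated ones. It read 9.87, 9.13 and 9.05 on the treated wild-type arrays and 11.17, 11.70 and 11.63 on the untreated ones. Every treated array lay below every untreated array, in both genotypes. The TNF difference was -1.48 on the arrays labelled mutant (SE 0.43, adjusted p = 0.0919, not passing) and -2.15 in wild type (SE 0.43, adjusted p = 0.0173). Averaged over genotype it was -1.82 (SE 0.31, 95% interval -2.49 to -1.14, limma adjusted p = 0.00299). By group mean, untreated wild type stood highest (11.50 ± 0.29, SD, n = 3), followed by untreated labelled mutant (11.20 ± 0.15), treated labelled mutant (9.72 ± 1.08) and treated wild type (9.35 ± 0.45). The untreated groups overlapped, as did the treated groups, so only the step between treatments was larger than the spread.

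The wild-type call for Mcpt8 was lost after adjustment for Xist and Eif2s3y (-2.21, adjusted p = 0.108), without untreated wild-type replicate 2 or 3 (adjusted p = 0.0586 and 0.0624) and without treated wild-type replicate 2 or 3 (0.0598 and 0.0728). In these 4 fits without a wild-type array the log2 difference lay between -2.09 and -2.0, close to the value over all arrays. On the arrays labelled mutant it passed without treated replicate 3 (-2.03, adjusted p = 0.0105) and shrank to -0.94 without treated replicate 2 (adjusted p = 0.225).

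Il4, which encodes the type 2 cytokine interleukin-4, gave a low signal throughout, between 4.36 and 5.19, not far above the lower quartile of the arrays, where differences are compressed. It read 4.36, 4.51 and 4.51 on the treated arrays labelled mutant and 4.54, 4.59 and 4.59 on the untreated ones. It read 4.46, 4.45 and 4.37 on the treated wild-type arrays and 5.19, 5.12 and 4.84 on the untreated ones. The untreated wild-type arrays stood above all 9 others, which lay within 4.36 to 4.59. The treated and untreated groups did not overlap in either genotype, although the gap was small on the arrays labelled mutant. The TNF difference was -0.11 on the arrays labelled mutant (SE 0.09, adjusted p = 0.629) and -0.62 in wild type (SE 0.09, adjusted p = 0.0035). With the Xist and Eif2s3y covariates the wild-type call was lost (-0.53, adjusted p = 0.0595). Of the 5 other cytokine genes measured, Il13, Il5, Il3 and Csf2 were below the lower quartile on every array. Il6 read 4.11 to 5.83 and was below it on 1 array. None of the 5 passed for TNF.

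In wild-type cells 2 of the 7 members were called lower and 0 higher, against 2.33% of all genes called lower and 2.69% called higher. All 7 had a negative log2 difference, with a median of -1.33 against -0.03 over all genes. The arrays of treated and untreated wild-type cells did not overlap for 4 members (Mcpt8, Il4, Epx and Ms4a2), all lower, against 11.7% of all genes. On the arrays labelled mutant 0 members were called in limma, where 1.86% of all genes were called lower and 2.45% higher, and 1 member, Mcpt8, had an unadjusted p under 0.05 (0.00586). That is 14.3% of members against 17.1% of all genes, while in wild type 5 of 7 members (71.4%) had one, against 17.8% of all genes. The median there was -0.09 against -0.03 over all genes, and the groups did not overlap for 2 members, Mcpt8 and Il4, both lower, against 15.8% of all genes. Averaged over genotype Mcpt8 and Il4 were called lower, where 6.32% of all genes were called lower and 5.81% higher.

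**Figure D2:**
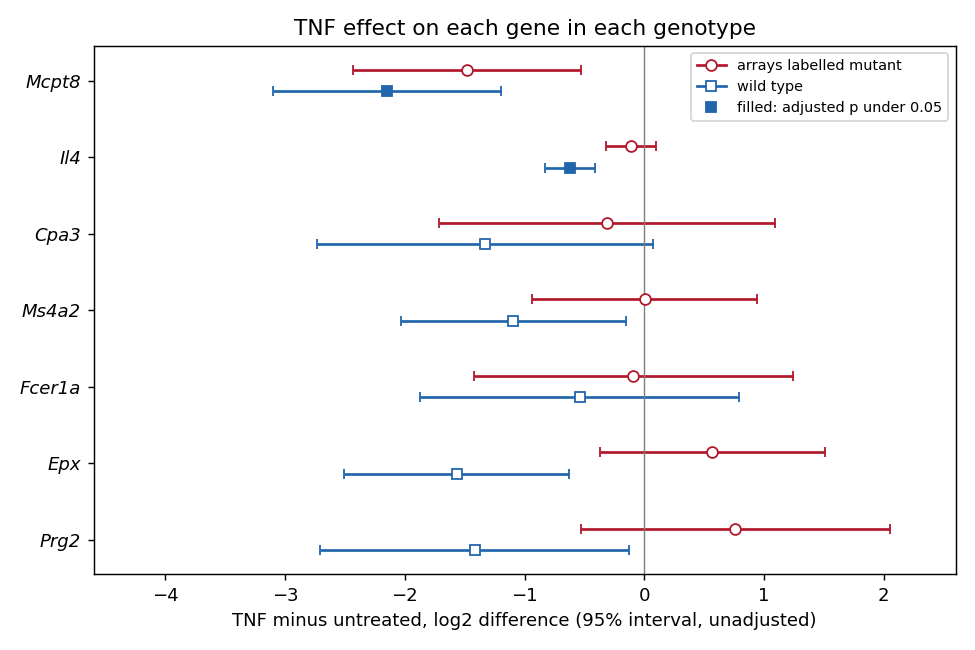
TNF minus untreated log2 difference of each gene on the arrays labelled mutant (circles) and in wild type (squares), with unadjusted 95% intervals from limma. Filled symbols passed an adjusted p under 0.05. The filled symbols are Mcpt8 and Il4 in wild type. The 2 intervals do not overlap for Epx and for Il4, but no member passed the direct test of the difference between the TNF effects.

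Cpa3, Ms4a2 and Fcer1a are shared by mast cells, basophils and their common precursors, and none of the 3 passed for TNF. Cpa3, mast cell carboxypeptidase A, read 8.83, 7.17 and 8.75 on the treated arrays labelled mutant and 8.47, 9.11 and 8.10 on the untreated ones. It read 9.16, 6.43 and 8.30 on the treated wild-type arrays and 9.73, 9.09 and 9.07 on the untreated ones. The groups overlapped in both genotypes. The TNF difference was -0.31 on the arrays labelled mutant (adjusted p = 0.873) and -1.33 in wild type (95% interval -2.73 to 0.07, adjusted p = 0.308). Without treated wild-type replicate 2 the wild-type difference was -0.56 (adjusted p = 0.663).

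Ms4a2, the beta chain of the IgE receptor, read 8.01, 6.91 and 7.39 at its brighter probe set on the treated arrays labelled mutant and 7.02, 7.92 and 7.37 on the untreated ones. It read 8.12, 6.22 and 7.22 on the treated wild-type arrays and 8.19, 8.17 and 8.48 on the untreated ones. The wild-type arrays did not overlap, although treated replicate 1 lay within 0.05 of the lowest untreated array. Its difference was 0.00 on the arrays labelled mutant (adjusted p = 0.999) and -1.09 in wild type (SE 0.43, adjusted p = 0.202), and the wild-type difference passed only without treated wild-type replicate 1 (-1.56, adjusted p = 0.0453). The dimmer probe set gave 0.11 and -1.30 and passed in neither case.

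Fcer1a, the IgE-binding alpha chain, showed no separation of the groups. It read 6.78, 5.08 and 7.41 on the treated arrays labelled mutant and 6.39, 7.43 and 5.72 on the untreated ones. It read 7.08, 5.92 and 6.72 on the treated wild-type arrays and 6.51, 7.09 and 7.73 on the untreated ones. All 4 groups overlapped. The TNF difference was -0.09 (95% interval -1.43 to 1.24) on the arrays labelled mutant and -0.54 (95% interval -1.87 to 0.79) in wild type, so neither interval was narrow enough to bound the change closely.

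Treated replicate 2 held the lowest Cpa3, Ms4a2 and Fcer1a values of its group in both genotypes. Gata1, the transcription factor gene of the erythroid, megakaryocyte, mast cell and eosinophil lineages, was also lowest there, at 5.50 on the array labelled mutant and 4.96 on the wild-type array. The same arrays were lowest in both genotypes for 34 of 145 genes of all the lists of related and other cells, 4 of 13 neutrophil and 5 of 11 monocyte markers among them, against 23 genes for replicate 1 and 10 for replicate 3. For replicate 2 the count was 0 of 9 erythroid, 0 of 13 lymphoid, 1 of 10 megakaryocyte, 1 of 12 stromal and 1 of 10 stem cell genes. Low values on these arrays were thus also seen in some neutrophil and monocyte markers, and hardly in the other lists of other cells. Over the 12 arrays Cpa3 correlated with Ms4a2 at Pearson's r = 0.90 (Spearman's rho = 0.86) and with Fcer1a at 0.71 (rho = 0.64). Each point is 1 array, and genes of an array share its RNA extract and amplification.

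**Figure D3:**
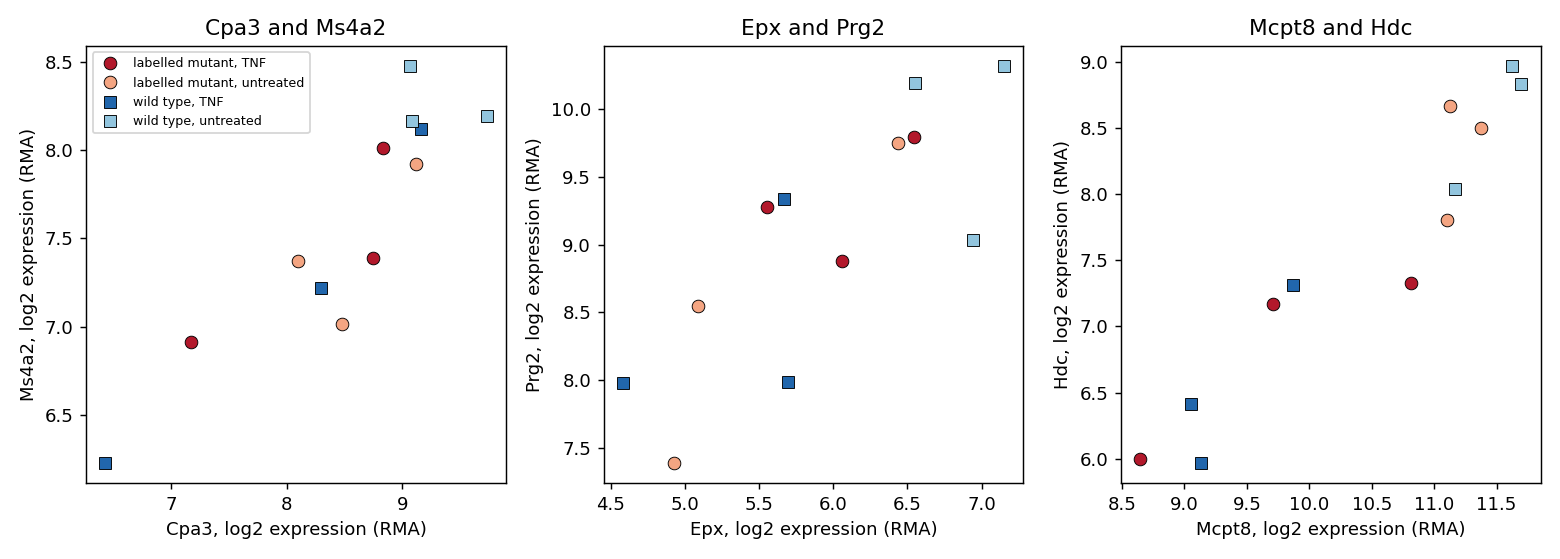
Log2 expression of 3 pairs of genes, Cpa3 with Ms4a2, Epx with Prg2 and Mcpt8 with Hdc, with 1 point per array and colours and shapes for the 4 groups. In the Mcpt8 panel every treated array lies below the untreated arrays of its genotype on both axes. In the other panels the treated wild-type arrays lie below the untreated ones on the Ms4a2 and Epx axes only. Treated and untreated arrays labelled mutant overlap on every axis of those panels.

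Profiles over the 12 arrays were compared with those of 3085 genes that range over at least 1 log2 unit, members and predicted genes left out. Those with the profile most like that of Cpa3 were Rph3al (r = 0.91), Ptpru (0.90) and Gata1 (0.88). Those most like Ms4a2 were Gata1 (0.88), Kank2 (0.84) and Dnhd1 (0.82). After removal of the group means the correlation with Gata1 was 0.85 for Cpa3 and 0.91 for Ms4a2, so it was present among arrays of the same group. Gata1 was picked on these same 12 arrays, so this is not separate support. The treated replicate 2 arrays, lowest of their groups for Cpa3, Ms4a2 and Gata1, enter this correlation. Mcpt8 was most like Rnpep (0.96), Hdc (0.95) and Stx7 (0.95). Fcer1a was most like Il6 (0.83), Pafah2 (0.76) and Usp44 (0.73). Il4 ranged over 0.83 only and was not compared.

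The sequences before the annotated starts of Cpa3, Ms4a2, Fcer1a and Mcpt8 are shown because the profiles of the first 2 resembled that of Gata1, Fcer1a encodes the partner chain of Ms4a2, and Mcpt8 was called lower with TNF. Il4 was called lower too, and its 2 windows are given by their matches only. Each is 250 bases before 1 annotated start, from RefSeq on GRCm38.p6 and on the gene's own strand, in which capitals mark the GATA motif.
Cpa3: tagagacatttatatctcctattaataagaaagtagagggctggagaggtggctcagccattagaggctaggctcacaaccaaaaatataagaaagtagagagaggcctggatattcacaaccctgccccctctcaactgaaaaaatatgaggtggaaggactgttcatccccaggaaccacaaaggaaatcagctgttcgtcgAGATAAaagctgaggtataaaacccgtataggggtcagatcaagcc
Ms4a2: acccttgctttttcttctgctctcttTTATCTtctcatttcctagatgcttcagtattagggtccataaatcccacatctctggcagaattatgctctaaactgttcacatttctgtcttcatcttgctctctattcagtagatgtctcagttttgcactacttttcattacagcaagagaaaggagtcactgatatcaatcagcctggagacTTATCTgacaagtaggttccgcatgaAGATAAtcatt
Fcer1a: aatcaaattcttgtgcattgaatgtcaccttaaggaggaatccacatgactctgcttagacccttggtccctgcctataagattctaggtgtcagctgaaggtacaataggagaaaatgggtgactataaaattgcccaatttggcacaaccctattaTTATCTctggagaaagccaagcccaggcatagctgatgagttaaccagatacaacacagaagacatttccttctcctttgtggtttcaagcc
Mcpt8: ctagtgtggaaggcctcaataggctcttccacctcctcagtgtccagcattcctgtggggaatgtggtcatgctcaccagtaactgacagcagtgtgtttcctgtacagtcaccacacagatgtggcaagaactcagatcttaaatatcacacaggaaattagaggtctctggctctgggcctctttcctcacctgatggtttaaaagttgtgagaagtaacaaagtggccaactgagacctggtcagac

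The windows lie on the minus strand at chr3:20242182-20242431 for Cpa3, chr19:11623720-11623969 for Ms4a2, chr1:173227230-173227479 for Fcer1a and chr14:56085198-56085447 for Mcpt8. RefSeq gene spans, which also cover transcripts with starts further upstream, take in all 250 bases of the Mcpt8 window, 71 of the Ms4a2 window, 28 of the Cpa3 window and 3 of the Fcer1a window, so these bases lie before one start and within the gene by another. The GATA motif was searched as AGATAA or AGATAG or TGATAA or TGATAG on both strands. Cpa3 held 1 match, 46 to 41 bases before the start, Fcer1a held 1 on the other strand, 92 to 87 bases before it, and Ms4a2 held 3, of which 2 lay within 37 bases of the start used here and inside the gene span. Prss34 and the first of the 2 Il4 windows held 1 each, while Mcpt8, Epx and the second Il4 window held 0. At least 1 match was found in 5 of the 8 member windows and in 26.5% of all 32841 RefSeq windows of this length. A RUNX motif, searched as TGTGGT on both strands, was in 3 member windows (2 matches in Mcpt8 and 1 each in Cpa3 and Fcer1a) and in 14% of all windows. The motif TTCNNNGAA was in 0 member windows and 7.02% of all, and TTGCNNAA was in 2 (Fcer1a and the second Il4 window) and 9.57% of all. No window was given for Prg2.

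The eosinophil granule genes Epx and Prg2 had lower values with TNF in wild-type cells and higher values with TNF on the arrays labelled mutant, and neither change passed. Epx, eosinophil peroxidase, read 6.54, 5.55 and 6.06 on the treated arrays labelled mutant and 4.93, 6.44 and 5.09 on the untreated ones. It read 4.58, 5.67 and 5.70 on the treated wild-type arrays and 6.94, 7.15 and 6.55 on the untreated ones. The wild-type groups did not overlap and the groups labelled mutant did. The TNF difference was 0.57 on the arrays labelled mutant (SE 0.42, adjusted p = 0.576) and -1.57 in wild type (SE 0.42, 95% interval -2.50 to -0.63, adjusted p = 0.0642). After adjustment for Xist and Eif2s3y the wild-type difference was -1.77 (adjusted p = 0.0843). It passed with trended and robust moderation (adjusted p = 0.0414) and without untreated replicate 2 labelled mutant (0.0265).

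Prg2, major basic protein, read 9.80, 9.28 and 8.88 on the treated arrays labelled mutant and 7.38, 9.75 and 8.54 on the untreated ones. It read 7.98, 9.33 and 7.99 on the treated wild-type arrays and 9.03, 10.32 and 10.20 on the untreated ones. The groups overlapped in both genotypes. Its TNF difference was 0.76 on the arrays labelled mutant (SE 0.58, adjusted p = 0.588) and -1.42 in wild type (SE 0.58, adjusted p = 0.23). Prg3, the second major basic protein gene, was the gene most like Prg2 over the 12 arrays (r = 0.83, and 0.73 after removal of the group means), although it was below the lower quartile on 2 arrays. Its TNF differences were 0.89 on the arrays labelled mutant and -1.19 in wild type (adjusted p = 0.48 and 0.29). Epx and Prg2 correlated at r = 0.80 (rho = 0.78). Epx itself was most like Noxred1 (0.79), Megf10 (0.73) and Plekhg2 (0.71).

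Whether the TNF effect depended on genotype was tested directly as the difference between the TNF effects, labelled mutant minus wild type. None of the 7 members passed in limma, each with adjusted p = 1, and 0 of all genes did (0%). Without adjustment, 3 members (42.9%) had p under 0.05, against 2.9% of all genes. They were Il4 (0.51, SE 0.13), Epx (2.13, SE 0.60) and Prg2 (2.18, SE 0.83). All 7 differences were positive, with a median of 1.02 against -0.00 over all genes, and the members share the same arrays. The TNF difference in wild type, the genotype difference without TNF and this one all use the untreated wild-type arrays. Their signs are thus not separate results. The 95% intervals were wide, from 0.81 to 3.46 for Epx and from -0.68 to 2.02 for Mcpt8. With the Xist and Eif2s3y covariates the Epx and Prg2 differences were 2.70 and 2.66, also with adjusted p = 1.

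Between genotypes without TNF, 0 of 7 members passed in limma, against 0.0055% of all genes. Epx and Il4 had an unadjusted p under 0.05 (0.00743 and 0.0004), which 4.12% of all genes had. All 7 members had lower means on the untreated arrays labelled mutant than on the untreated wild-type arrays. The largest differences were -1.40 for Epx (SE 0.42, adjusted p = 0.992), -1.29 for Prg2 (SE 0.58, adjusted p = 0.992) and -0.84 for Ms4a2 (SE 0.43, adjusted p = 0.992). Il4 differed by -0.48 (SE 0.09, adjusted p = 0.808). After adjustment for Xist and Eif2s3y the differences were -1.63 for Epx, -1.68 for Prg2, -1.03 for Ms4a2 and -0.43 for Il4, each with adjusted p = 1. The arrays did not overlap for Epx, Ms4a2 and Il4, against 4.28% of all genes that were lower without overlap. The median difference was -0.73 against -0.01 over all genes.

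In the order of group means untreated wild type was highest for all 7 members. The step from it to the next group was larger than the pooled SD for Epx (0.83 against 0.60), Ms4a2 (0.84 against 0.60) and Il4 (0.48 against 0.11), and smaller for Mcpt8, Cpa3, Prg2 and Fcer1a. The next group was untreated labelled mutant for Mcpt8, Cpa3 and Il4, treated labelled mutant for Epx, Prg2 and Ms4a2, and treated wild type for Fcer1a. Treated wild type was lowest for every member but Fcer1a, for which treated labelled mutant was lowest. Among the 3 lower groups neighbours differed by less than the pooled SD for Cpa3, Epx, Prg2, Fcer1a and Ms4a2, and for Il4 the gap between the groups labelled mutant (0.11) was about the pooled SD.

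With TNF, 0 of 7 members passed for genotype in limma, against 0.0055% of all genes, and 0 had an unadjusted p under 0.05, against 5.6% of all genes. The groups overlapped for all 7 members, against 11% of all genes that did not overlap. Differences ran from -0.15 for Fcer1a to 0.89 for Prg2, and 6 of 7 were positive. For Mcpt8 the difference was 0.37 with a 95% interval from -0.58 to 1.33. Averaged over TNF, 0 of 7 passed in limma (0.022% of all genes did), and Il4 alone had an unadjusted p under 0.05, against 7.39% of all genes (difference -0.22, SE 0.07). A genotype difference of the members was thus not detected by limma among these arrays.

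Other genes of these lineages moved with TNF in part. Of 13 measured genes for mediators and cytokines, 1 rose and 3 fell in wild type. Hdc, which makes histamine, read 7.17, 6.0 and 7.33 on the treated arrays labelled mutant and 7.81, 8.51 and 8.67 on the untreated ones. It read 7.32, 5.96 and 6.41 on the treated wild-type arrays and 8.04, 8.84 and 8.97 on the untreated ones, without overlap in either genotype. Averaged over genotype Hdc fell by 1.78 (SE 0.30, limma adjusted p = 0.00324). The leukotriene synthesis genes Alox5ap and Alox5 fell by 0.87 and 1.33 in wild type, and Alox5ap fell by 0.71 on the arrays labelled mutant. Alox5 differed by -0.53 on the arrays labelled mutant and did not pass. Ptgs2, the inducible cyclooxygenase, rose by 1.79 in wild type. On the arrays labelled mutant it differed by 0.94, which did not pass, and by 1.24 with the Xist and Eif2s3y covariates, which did (limma adjusted p = 0.0115). The list's median TNF difference in wild type was -0.06. After adjustment for Xist and Eif2s3y, Hdc was still called in the average (-2.13, adjusted p = 0.0167) but not in wild type (-2.45, adjusted p = 0.0583). Alox5 (adjusted p = 0.139) and Alox5ap (0.0912) lost their wild-type calls, Alox5ap lost that on the arrays labelled mutant (0.15), and Ptgs2 kept its own (0.0015).

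Of 23 measured receptor and IgE signalling genes, 2 rose and 0 fell on the arrays labelled mutant, and 1 rose and 1 fell in wild type. Cd200r3, a basophil and mast cell receptor, fell by 1.48 in wild type (SE 0.37, limma adjusted p = 0.0472), and its difference on the arrays labelled mutant was -0.47 (adjusted p = 0.60). The activation marker Cd69 rose by 0.63 on the arrays labelled mutant and by 0.50 in wild type. The kinase gene Fyn rose by 0.66 on the arrays labelled mutant, and its difference in wild type was 0.43 (limma adjusted p = 0.0636). Averaged over genotype, Csf2rb, the shared beta chain of the IL-3, IL-5 and GM-CSF receptors, fell by 0.40 and Lat2, an adaptor in IgE receptor signalling, fell by 0.39. Fcer1g, the signalling chain of the IgE receptor that many myeloid cells share, differed by 0.11 on the arrays labelled mutant and -0.14 in wild type and did not pass. After adjustment for Xist and Eif2s3y, Cd200r3 and Cd69 kept these calls and Lat2 kept that in the average. Fyn (adjusted p = 0.056, arrays labelled mutant) and Csf2rb (0.123, average) lost theirs.

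Of 21 measured transcription factor genes, 2 rose and 2 fell on the arrays labelled mutant, and 2 rose and 4 fell in wild type. Bach2 rose by 1.10 on the arrays labelled mutant and by 1.20 in wild type, and Bhlhe40 by 1.32 and 1.04. Id1 (-1.84 and -1.42) and Irf8 (-1.36 and -1.78) fell in both. Id2 fell by 0.75 in wild type, and its difference on the arrays labelled mutant was -0.63 (limma adjusted p = 0.0807). The wild-type calls of Id1 and Id2 were lost after adjustment for Xist and Eif2s3y (adjusted p = 0.104 and 0.169), and the other calls named here were kept. Gata1 had differences of -0.36 on the arrays labelled mutant and -0.81 in wild type, and Gata2, a regulator of mast cell and basophil precursors, had 0.34 and 0.29, and none of these 4 values passed.

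Of 8 measured protease genes of mast cells, 0 passed in either genotype, and Ctsg, the cathepsin G gene that neutrophil precursors also express, fell by 0.92 in the average over genotype, a call lost after adjustment for Xist and Eif2s3y (adjusted p = 0.0925). Of 5 granule cargo genes none passed in any of the 3 TNF comparisons. The median TNF differences in the average over genotype were -0.07 for the proteases, -0.10 for granule cargo, -0.10 for mediators, -0.06 for receptors and -0.22 for transcription factors. They compare with -0.50 for the 7 members and -0.03 for all genes. The lists are not alike in signal. Below the lower quartile on every array were 4 of 8 proteases, 4 of 13 mediators and 4 of 23 receptors, and no member.

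**Figure D4:**
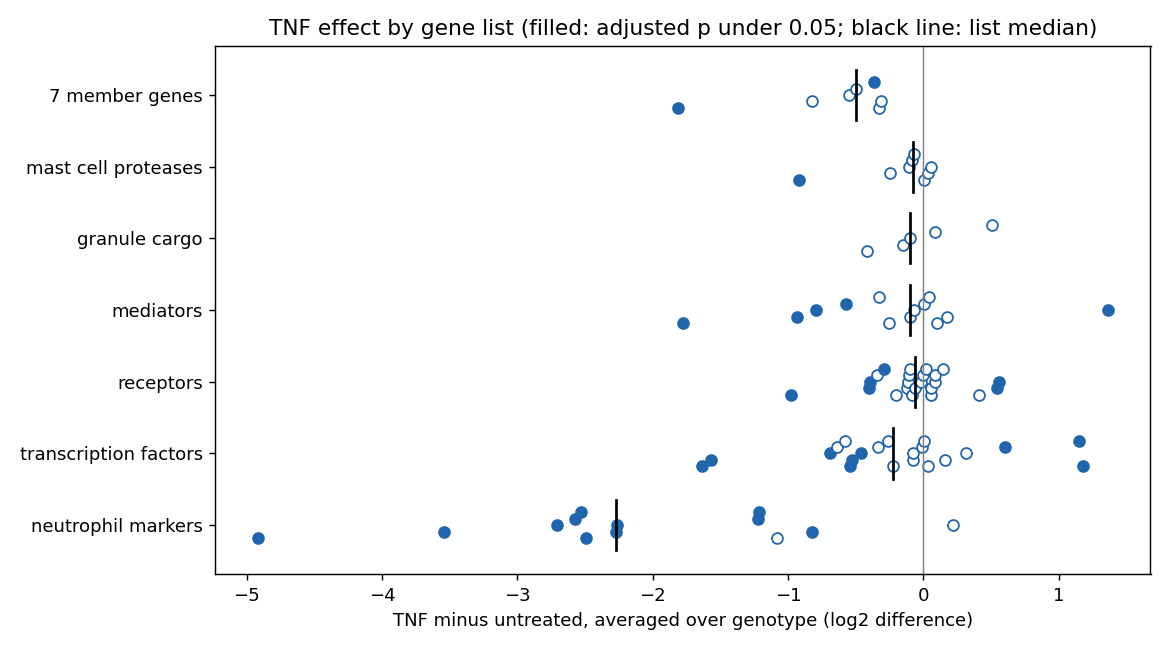
TNF minus untreated log2 differences averaged over genotype, 1 point per gene, for the 7 members, 5 lists of related genes and the neutrophil markers. Filled points passed an adjusted p under 0.05 and black lines are list medians. The member median is -0.50 and the neutrophil median is -2.27, and the 5 lists of related genes have medians between -0.22 and -0.06.

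Markers of other lineages moved with TNF in the same samples. Of 13 measured neutrophil markers 6 fell and 0 rose on the arrays labelled mutant (median -1.62), and 9 fell and 0 rose in wild type (median -2.77). The mean log2 level of that list ran from 7.83 to 9.17 on the treated arrays labelled mutant and from 10.30 to 10.69 on the untreated ones, and from 7.21 to 8.15 on the treated wild-type arrays and from 9.72 to 10.23 on the untreated ones. After adjustment for Xist and Eif2s3y 4 neutrophil markers were called lower on the arrays labelled mutant (median -1.30) and 6 in wild type (median -2.97). None of the neutrophil markers was below the lower quartile on all arrays. Of 11 monocyte, macrophage and dendritic markers, 3 rose and 1 fell on the arrays labelled mutant, and 2 rose and 1 fell in wild type. After that adjustment 2 rose and 0 fell on the arrays labelled mutant, and 1 rose and 1 fell in wild type. The part of these markers in the fall of Mcpt8 and Il4 was not tested.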

How the data were processed

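The authors deposited log2 values, 1 per probe set and array, from 12 Affymetrix mouse expression arrays. Per the submitters' processing notes they used RMA, a multi-array summary method, whose version is not stated there. That the base is 2 was read from the values (lowest 2.14, highest 14.94, and like quartiles between arrays). RMA subtracts background and brings all arrays to 1 distribution, which hides any shift common to all genes and compresses differences near the floor. Per the labels, the input to amplification was 5 to 15 ng of RNA. The number of arrays limits the precision.

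Of 45101 probe sets, 64 controls were left out, 34945 had 1 gene symbol, 932 several, and 9160 are unnamed here. A gene was its probe set with the highest mean, which gave 18193 genes. Each was fitted with limma 3.58.1 (R 4.3.3), as 4 group means, with 7 contrasts and 2-sided tests. All members are named in every comparison. From the 5 lists of related genes, up to 3 called genes each way are named, and Gata1, Gata2, Prg3, Fcer1g, Il13, Il5, Il3, Csf2, Ccr3, Mcpt1, Mcpt2, Mcpt4 and Tpsab1 were picked for naming with their values in view. The genes most like a member are the 3 with the highest r that are neither members nor predicted genes. The members, lists and tests were chosen with earlier results of these data known. Of the members, 4 of 7 passed the filter on dim genes used as an alternative. It asked for at least 3 values above 7.44, the median of the values of the 18193 genes. Megakaryocyte, erythroid, lymphoid, stromal and stem cell lists were also counted, with 1 and 0, 1 and 1, 0 and 1, 0 and 0, and 1 and 0 genes higher and lower on the arrays labelled mutant, and 2 and 1, 1 and 1, 0 and 1, 0 and 0, and 0 and 0 in wild type. The adjustment for Xist and Eif2s3y of the related and other-cell lists was added after seeing the data. The scripts were tested on simulated data. The alternatives are described in the closing section.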

Additional observations from a re-analysis of the deposited data

How the results depend on the processing

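Members were recomputed under 22 settings: each array left out, adjustment for Xist and Eif2s3y (the covariates), only the groups compared, array weights, trended and robust moderation, cyclic loess, median centring, probe sets singly or averaged, dim genes removed, and a replicate block. The number of members called for TNF in wild type was 2, and became 1 of the 4 members left by the filter on dim genes (Il4 was removed), 0 with the covariates, 3 with trended and robust moderation, and 1 to 3 when single arrays were left out. Counts over all genes moved as well. Of all 18193 genes, 489 were called higher and 424 lower in wild type in the main fit. In either direction 1038 were called with trended and robust moderation, 410 with the covariates and 474 to 957 without single arrays. With the filter 930 of 9444 were called. For TNF on the arrays labelled mutant the number of members called was 0, and 0 to 1 without single arrays. Of all genes 444 to 951 were called there without single arrays. For the TNF average the number of members was 2, and became 1 with the filter and 1 with the covariates. With the covariates Mcpt8 still passed and Il4 did not (limma adjusted p = 0.0805). The average called 2135 of 9444 genes with the filter and 1270 of 18193 with the covariates. Genotype without TNF, genotype with TNF, the interaction and the genotype average called 0 members under every setting run for them, and the last 2 were not run with only the groups compared. With a replicate block the count for TNF in wild type was 2, as without it. The replicate numbers share no stated source, same-numbered arrays correlated between -0.16 and 0.28 after removal of group means, different-numbered ones between -0.33 and 0.18, and an array correlated best with its own number in 19 of 36 choices, where 12 would be even. This is a hint from the data and not the design. Over all 1036 recomputed differences of members 28 changed sign, in each case between values that did not pass. Mcpt8 kept a negative TNF difference in wild type under all 22 settings, and Il4 under the 21 that tested it (-0.73 to -0.53). Low signal limits Il4, Epx and Fcer1a, which the filter on dim genes removed. Il4 and Epx stayed below 7.44, the median of the values of the 18193 genes, on every array. Fcer1a was above it on 1 array.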
